A study of Mus musculus with 22 samples.

Results

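The genes described here are 10 magnesium channels and transporters, Trpm6, Trpm7, Cnnm2, Cnnm3, Cnnm4, Slc41a1, Nipa1, Nipa2, Mrs2 and Magt1, chosen by name from the 23997 rows of the deposited expression table, and all 10 were found. They were followed over 22 RNA sequencing libraries of colon from wild type BALB/c mice that were 5 weeks old at the start and drank one water for 3 weeks. HMLS (4 libraries) and TM (5 libraries) are groups given a deep sea water known in the labels by that abbreviation, with 5% dextran sulfate sodium (DSS) in the same water during the last week. DSS (5 libraries) received distilled water with 5% DSS in the last week, and CON (8 libraries) received distilled water alone. DSS is a sulfated polysaccharide that injures the colon lining and produces an acute colitis. The composition of the 2 sea waters is not stated by the labels. No group drank sea water without DSS. The labels do not say that each library is a separate mouse, so p-values measure the spread between these libraries, which may in part be technical.

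Magnesium enters cells through channels and leaves them through exchangers, and the intestine passes it both through and between epithelial cells. Trpm6 and Trpm7 are magnesium-permeable channels that carry a kinase domain, with Trpm6 found mainly in the apical membrane of absorbing epithelia of colon and kidney and Trpm7 in nearly all cells. The CNNM proteins move or regulate magnesium at the basolateral side, and Slc41a1 is a sodium-dependent magnesium exporter. Nipa1 and Nipa2 transport magnesium at the plasma membrane and in endosomes. Mrs2 is the magnesium channel of the inner mitochondrial membrane. Magt1 is a subunit of the oligosaccharyltransferase that adds N-glycans in the endoplasmic reticulum and has also been described as a magnesium transporter.

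The promoters of the 3 members that differed between HMLS and CON are shown because this comparison gave the largest count of members called. They are RefSeq windows on GRCm38.p6 of 300 bases, from 250 before to 50 after the annotated start, available for 9 of the 10 members (Mrs2 was not matched). Each is printed on its gene's strand, with capitals marking matches on either strand to the GC box GGGCGG, the CCAAT box CCAAT and the E box CACGTG. Trpm7 lies at chr2:126876212-126876511 on the minus strand, Nipa2 at chr7:55962444-55962743 on the minus strand and Magt1 at chrX:106011753-106012052 on the minus strand.
Trpm7: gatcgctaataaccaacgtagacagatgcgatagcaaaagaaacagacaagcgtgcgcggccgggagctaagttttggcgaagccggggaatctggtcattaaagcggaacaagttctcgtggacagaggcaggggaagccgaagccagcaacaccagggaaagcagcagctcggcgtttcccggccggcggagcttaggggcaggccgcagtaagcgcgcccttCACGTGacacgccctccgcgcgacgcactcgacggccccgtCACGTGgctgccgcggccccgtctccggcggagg
Nipa2: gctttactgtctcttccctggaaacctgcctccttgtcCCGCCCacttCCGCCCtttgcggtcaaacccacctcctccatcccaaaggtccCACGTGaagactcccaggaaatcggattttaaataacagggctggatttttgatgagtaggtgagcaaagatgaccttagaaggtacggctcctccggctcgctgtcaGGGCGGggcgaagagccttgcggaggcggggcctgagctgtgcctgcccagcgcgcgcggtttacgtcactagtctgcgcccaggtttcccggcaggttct
Magt1: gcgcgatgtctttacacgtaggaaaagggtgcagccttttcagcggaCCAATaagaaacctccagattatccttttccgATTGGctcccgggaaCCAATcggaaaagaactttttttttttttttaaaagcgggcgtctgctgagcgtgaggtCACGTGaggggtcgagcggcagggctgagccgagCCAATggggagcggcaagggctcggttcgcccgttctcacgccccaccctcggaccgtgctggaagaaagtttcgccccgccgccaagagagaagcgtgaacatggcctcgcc

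All 3 windows held the palindromic E box CACGTG, with 2 copies in Trpm7 and 1 copy each in Nipa2 and Magt1, and the windows of the other 6 matched members held none. It occurred in 7.15% of 32851 promoters of the same length, and it overlapped no other motif searched. These promoters are not a matched baseline, because the E box and the GC box contain CG. The ratio of observed to expected CG was 1.16 in Trpm7, 0.731 in Nipa2 and 1.07 in Magt1, against a median of 0.384 for all promoters. The 3 windows were chosen by their calls in 1 comparison, and the Magt1 call there ended without HMLS 3 and in other fits given below. Mrs2, called in TM, was not matched, and Cnnm3, called in DSS, held no E box. The genes with this motif did not share a direction, since Trpm7 and Nipa2 were higher and Magt1 lower in HMLS. The GC box was present in 6 of the 9 windows, against 35.7% of all promoters, the CCAAT box in 4 of 9, against 37.4%, and TATAAA in none of the 9, against 13.6%. These are matches of letters only, and no binding was measured.

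By position in GENCODE M21 on GRCm38, the members fell on 6 chromosomes, with 2 neighbouring pairs. Cnnm4 (chr1:36471620-36508764) and Cnnm3 (chr1:36511867-36528237) lay on the plus strand with 3.1 kb between them, and Nipa2 (chr7:55931287-55962476) and Nipa1 (chr7:55977567-56019954) lay on the minus strand 15.1 kb apart. The other members were Slc41a1 (chr1:131827493-131848865, plus strand), Trpm7 (chr2:126791565-126876230, minus), Mrs2 (chr13:24987483-25020379, minus), Trpm6 (chr19:18749983-18892511, plus), Cnnm2 (chr19:46761596-46880192, plus) and Magt1 (chrX:105968084-106011906, minus). Nipa2 overlaps Cyfip1, Mrs2 overlaps Gpld1 and Nipa1 overlaps A230056P14Rik, each on the opposite strand. Whether reads were counted by strand is not stated, so reads of such a pair may not have been told apart.

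The libraries held 48089882 to 68733410 reads, of which 82.3% to 92.7% mapped. Every DSS library (82.3% to 88.9%) mapped less than every CON library (89.9% to 91.9%) and every TM library (89.5% to 92.7%). Epithelial markers such as Epcam and Vil1 summed to between 2574 and 5546 FPKM, and 4 kidney markers to at most 0.713 FPKM, in all libraries. FPKM, the unit of the table, counts fragments scaled to transcript length and to the size of the library. Against CON, fibroblast markers were lower (5 of 6 called in HMLS, 2 in TM and 5 in DSS), as were smooth muscle markers in TM (4 of 6) and DSS (3 of 6) and fat cell markers in TM and DSS (4 of 4 tested in each). Epithelial markers were called higher for 2 of 7 in each group. Of 4 neutrophil markers, 1 in HMLS, 2 in TM and 2 in DSS passed the filter of 1 FPKM in 4 libraries, and these were called higher. They were S100a8 and, in TM and DSS, S100a9, with at most 0.896 FPKM in any CON library. Both entered the test only through the DSS-treated group, so their direction was close to fixed in advance. Leukocyte markers were lower in HMLS (3 of 6) and DSS (2 of 6), with 1 higher in TM, and endothelial markers were lower for 3 of 4 in HMLS, 1 in TM and 2 in DSS. Of 6 colonocyte markers, 1 was higher in HMLS, 1 higher and 1 lower in TM, and 2 higher in DSS. Of all genes tested, 17.5% were called higher and 16.6% lower in HMLS vs CON. These shares were 14.3% and 11.8% in TM, and 14% and 13.1% in DSS. Counts of 1 or 2 in such short lists alone do not show a shift of a cell type. Of these marker levels, the epithelial level was entered as a covariate, as was the colonocyte level, and the part of the others in the results below was not tested. In whole tissue, fewer cells of a type and less RNA per cell cannot be told apart. The libraries DSS 5, HMLS 3 and TM 5 departed from their groups in like ways (Pearson r of deviations over 13788 genes 0.558 for DSS 5 with HMLS 3, 0.432 for DSS 5 with TM 5 and 0.42 for HMLS 3 with TM 5), so each member's call is also given without them.

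All 10 genes were at or above 1 FPKM in all 22 libraries. Cnnm4, the basolateral magnesium extruder of the intestinal epithelium in mice, had the highest mean of the set at 86.3 FPKM, with libraries between 32.4 and 153 FPKM. Nipa2 (37.7 FPKM), Trpm7 (29.6), Mrs2 (27.3), Magt1 (24.0) and Trpm6 (15.8) followed, then Slc41a1 (11.2) and Cnnm3 (7.31), and Cnnm2 and Nipa1 were lowest at 3.38 FPKM each. Neighbours in this order overlapped over the 22 libraries, with 1 exception: the lowest Cnnm3 library (5.48 FPKM) lay above the highest Cnnm2 library (5.01 FPKM). Trpm6 varied most, with its highest library 5.01 times its lowest, followed by Cnnm4 at 4.71 times, and Cnnm3 varied least at 1.77 times.

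**Figure D1:**
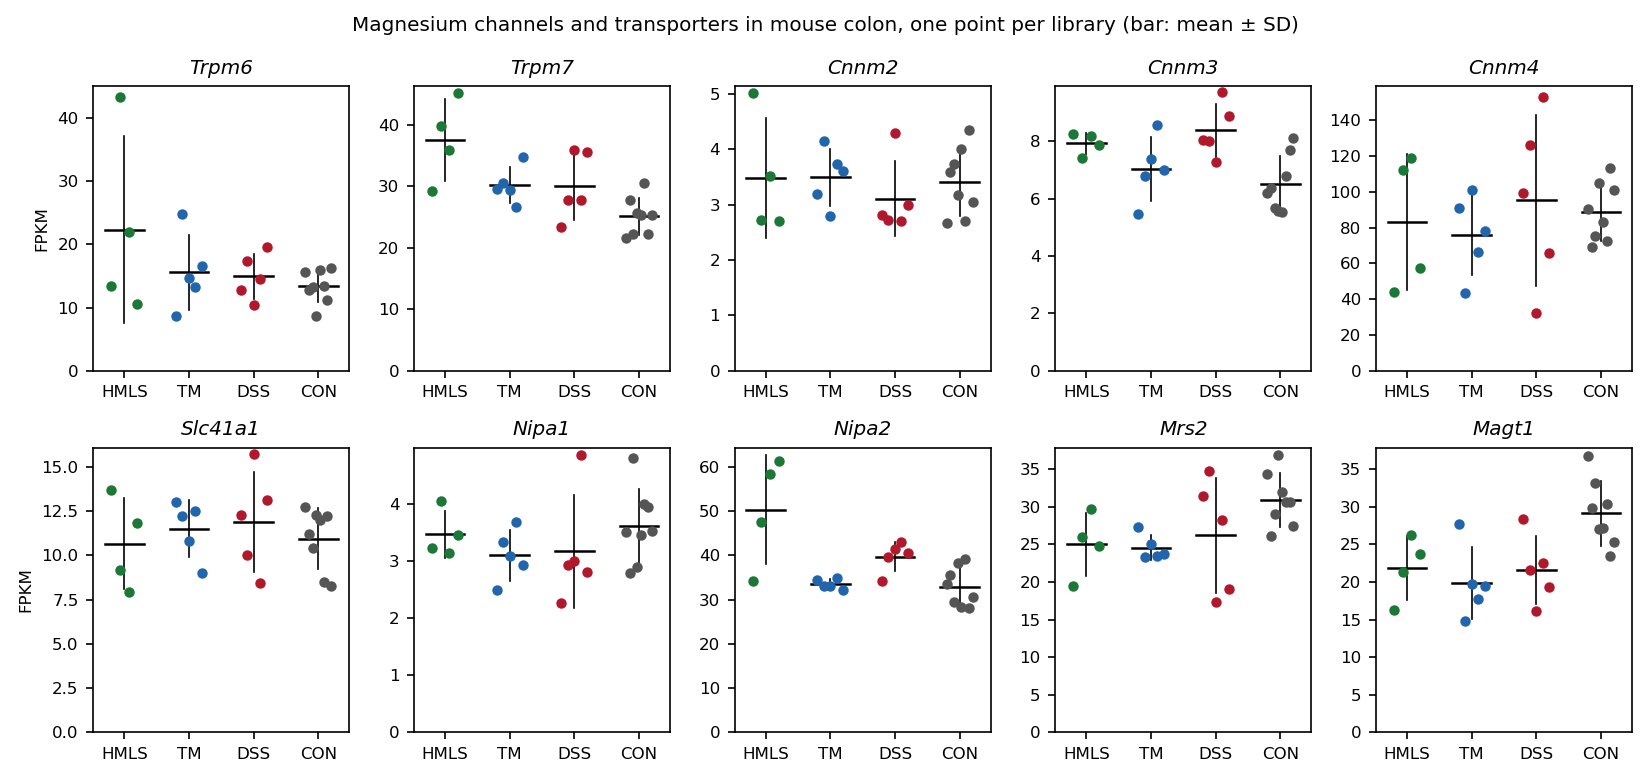
FPKM (vertical axis, from 0) of the 10 genes in each library of HMLS (4), TM (5), DSS (5) and CON (8), 1 point per library, with the mean as a horizontal bar and the SD as a vertical bar. In the Trpm7 and Nipa2 panels 3 of 4 HMLS libraries stand above every CON library, and most Magt1 points of the 3 DSS-treated groups lie below the CON points.

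Against CON, HMLS colon held more Trpm7 and Nipa2 and less Magt1, TM colon held less Magt1 and Mrs2, and DSS colon held more Cnnm3 and less Magt1. These were the only members with an adjusted p under 0.05 in limma on log2(FPKM + 1), the scale of every difference below. They amount to 3 of 10 members in HMLS vs CON, where 34.1% of all 13400 genes tested were called. They were 2 of 10 in TM vs CON, where 26% of 13485 were called, and 2 of 10 in DSS vs CON, where 27.1% of 13483 were called. The members' counts lay near these shares, and their median difference (-0.02 in HMLS, 0.04 in TM, 0.02 in DSS) stood beside 0, 0.01 and -0.01 for all genes. The 3 comparisons share the CON libraries, so their results are not independent of each other. The 2 groups overlapped for all 10 members in each, while 15% of all genes had no overlap for HMLS, 8.06% for TM and 7.85% for DSS against CON.

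Trpm7 had 29.2, 39.7, 35.9 and 45.1 FPKM in HMLS and 29.5, 30.6, 29.4, 26.7 and 34.7 FPKM in TM. It had 23.4, 27.7, 35.8, 27.7 and 35.6 FPKM in DSS, against 21.6 to 30.5 FPKM (median 25.4) in CON. HMLS 3 lay within the CON range and the other 3 HMLS libraries above it. Trpm7 averaged 37.5 ± 6.67 FPKM in HMLS (SD, n = 4) and 25.1 ± 3.06 FPKM in CON (n = 8), a log2 difference of 0.55 (SE 0.122, 95% interval 0.29 to 0.81, limma adjusted p = 0.00385). The call held in all 12 fits that left out 1 library (0.46 to 0.66), and the difference was larger without HMLS 3 (0.66, adjusted p = 0.00204). With the replicate number as a block the call was lost (0.56, adjusted p = 0.0666). In TM Trpm7 averaged 30.2 ± 2.9 FPKM. The difference from CON was 0.26 (SE 0.0934, adjusted p = 0.0502), just outside the threshold, which it passed without CON 2, CON 6 or TM 7 (lowest adjusted p 0.0225). In DSS Trpm7 averaged 30 ± 5.44 FPKM, 0.24 above CON (SE 0.116, adjusted p = 0.133). Among the fits that left out 1 library, it passed the threshold only without DSS 1 (adjusted p = 0.0451).

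Trpm6, the epithelial channel, had 13.4, 43.2, 22 and 10.6 FPKM in HMLS and 8.63, 24.7, 14.7, 13.2 and 16.5 FPKM in TM. It had 12.8, 17.4, 10.4, 14.5 and 19.5 FPKM in DSS, against 8.7 to 16.2 FPKM (median 13.3) in CON. HMLS 6 held more than any other library, at 43.2 FPKM, followed by TM 5 at 24.7 FPKM, while the rest of both groups reached at most 22 FPKM. HMLS 6 also held the highest Slc26a3 (497 FPKM) and Aqp8 (469 FPKM) of the 22 libraries, 2 transporters of surface colonocytes. The other colonocyte markers did not peak in HMLS 6. Car1 had 6990 FPKM there (7530 in CON 3) and Car4 81.2 FPKM (367 in DSS 7). Ceacam1 had 1500 FPKM (2850 in HMLS 8) and Guca2a 1760 FPKM (2920 in CON 4). The HMLS difference from CON was 0.52 (SE 0.281, 95% interval -0.08 to 1.13, adjusted p = 0.165). With the colonocyte marker level as a covariate it was 0.43 (adjusted p = 0.228), and the HMLS vs TM difference was 0.165 with that covariate and 0.37 without it. The HMLS difference from CON was 0.15 without HMLS 6, and it passed the threshold at 0.79 without HMLS 8 (adjusted p = 0.0477). In TM the sign itself depended on TM 5, with 0.15 in all libraries and -0.02 without it. Thus neither a rise nor the lack of one in Trpm6 was resolved by 4 or 5 libraries a group.

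Among the CNNM genes, Cnnm3, whose protein binds the phosphatases of regenerating liver, had 8.24, 7.43, 8.19 and 7.85 FPKM in HMLS and 5.48, 6.78, 7.37, 8.55 and 7.01 FPKM in TM. It had 8.05, 8.0, 7.27, 9.71 and 8.86 FPKM in DSS, against 5.55 to 8.11 FPKM (median 6.3) in CON. DSS 6 and DSS 7 stood above the CON range and the other 3 DSS libraries in its upper part. Cnnm3 averaged 8.38 ± 0.932 FPKM in DSS (SD, n = 5) and 6.49 ± 0.976 FPKM in CON (n = 8), a log2 difference of 0.33 (SE 0.107, 95% interval 0.1 to 0.56, limma adjusted p = 0.0352). This call ended in 8 of 13 fits that left out 1 library (CON 1, CON 2, CON 3, CON 4, CON 5, DSS 2, DSS 6 or DSS 7, adjusted p up to 0.0813), although the difference stayed between 0.28 and 0.37, and it held without DSS 5 (0.37, adjusted p = 0.0264). It also ended with the percent of reads mapped as a covariate (0.20, adjusted p = 0.592) and with the epithelial marker level as a covariate (0.27, adjusted p = 0.175). The call was lost too with no filter on low values (adjusted p = 0.0512) and with the replicate number as a block (0.32, adjusted p = 0.0847). Every DSS library mapped less than every CON library, so percent mapped can hardly be told apart from the group. With it 26 genes in all were called, against 3655 without it, so that loss is not particular to Cnnm3. In HMLS the difference from CON was 0.26 (SE 0.112, adjusted p = 0.0826, and 0.0393 without CON 8), and in TM it was 0.10 (SE 0.111, adjusted p = 0.526).

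Cnnm4 had 43.8, 112, 119 and 57.7 FPKM in HMLS and 90.9, 43.3, 101, 66.3 and 78.3 FPKM in TM. It had 99.5, 126, 32.4, 153 and 66.0 FPKM in DSS, against 69.0 to 113 FPKM (median 86.8) in CON. Libraries of HMLS and DSS lay on both sides of the CON range, and those of TM within or below it. The coefficients of variation were 45.6% in HMLS, 29.4% in TM and 49.9% in DSS, against 18.5% in CON. The lowest Cnnm4 of each DSS-treated group was in HMLS 3, TM 5 and DSS 5, the libraries that depart alike from their groups. The differences from CON were -0.19 in HMLS (SE 0.236), -0.26 in TM (SE 0.181) and -0.06 in DSS (SE 0.284), none called (adjusted p = 0.545, 0.306 and 0.89). Without those 3 libraries they were 0.07, -0.07 and 0.28, so that the sign turned in HMLS and DSS. Cnnm2, a CNNM of the kidney's distal tubule, ranged from 2.66 to 5.01 FPKM and differed from CON by at most 0.103 in size in any group, with no call.

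Of the exporters and membrane transporters, Nipa2 had 34.1, 47.4, 58.3 and 61.3 FPKM in HMLS and 34.4, 33.0, 33.0, 34.9 and 32.2 FPKM in TM. It had 34.2, 39.6, 41.4, 43.0 and 40.4 FPKM in DSS, against 28.0 to 39.2 FPKM (median 32.1) in CON. As for Trpm7, HMLS 3 lay within the CON range and the other 3 HMLS libraries above it, whereas all 5 TM libraries lay within it. Nipa2 averaged 50.3 ± 12.3 FPKM in HMLS (SD, n = 4) and 32.8 ± 4.44 FPKM in CON (n = 8), a log2 difference of 0.58 (SE 0.148, 95% interval 0.26 to 0.89, limma adjusted p = 0.00857). The call held in all 12 fits that left out 1 library (0.47 to 0.75), with 0.75 and adjusted p = 0.00172 without HMLS 3. With the replicate number as a block it was lost (0.62, adjusted p = 0.0814). In DSS Nipa2 averaged 39.7 ± 3.35 FPKM, 0.27 above CON (SE 0.103, adjusted p = 0.0594), and it passed the threshold without CON 4, CON 6 or DSS 1 (lowest adjusted p 0.0337). In TM it averaged 33.5 ± 1.11 FPKM, a difference of 0.04 from CON (95% interval -0.16 to 0.24), which turned to -0.05 under quantile normalization.

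Cyfip1, the gene that overlaps Nipa2 on the other strand, was called higher in all 3 comparisons with CON, by 0.42 in HMLS, 0.37 in TM and 0.38 in DSS (adjusted p = 0.00528, 0.0103 and 0.00785). It averaged 20.2 ± 1.91 FPKM in HMLS, 19.5 ± 2.56 FPKM in TM, 19.6 ± 1.78 FPKM in DSS and 14.8 ± 1.51 FPKM in CON. In TM Cyfip1 was higher while Nipa2 stood 0.04 above CON, and what reads of one add to the other was not tested. Nipa1, the neighbour of Nipa2 whose human form is mutated in a hereditary spastic paraplegia, ranged from 2.26 to 4.86 FPKM, and Slc41a1 from 7.95 to 15.7 FPKM. Neither was called in any comparison, and their differences from CON were at most 0.165 in size.

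Mrs2, the mitochondrial channel, had 19.5, 26.0, 29.7 and 24.8 FPKM in HMLS and 27.3, 23.3, 25.0, 23.5 and 23.7 FPKM in TM. It had 31.4, 34.8, 17.4, 28.2 and 19.1 FPKM in DSS, against 26.1 to 36.9 FPKM (median 30.6) in CON. TM 3 lay within the CON range and the other 4 TM libraries below it, while DSS libraries lay on both sides of its lower end. Mrs2 averaged 24.6 ± 1.66 FPKM in TM (SD, n = 5) and 30.9 ± 3.53 FPKM in CON (n = 8), a log2 difference of -0.31 (SE 0.0871, 95% interval -0.5 to -0.13, limma adjusted p = 0.0166). This held in all 13 fits that left out 1 library (-0.295 and adjusted p = 0.0437 without TM 5), but not with the group spread taken from all 22 libraries (adjusted p = 0.113). The TM call was also lost with the replicate number as a block (-0.275, adjusted p = 0.0804). The differences were of like size without a call in HMLS (-0.30, SE 0.118, adjusted p = 0.0585) and DSS (-0.27, SE 0.152, adjusted p = 0.192). The HMLS difference passed the threshold without HMLS 7, CON 2 or CON 8 (lowest adjusted p 0.0265) and under quantile normalization (-0.41, adjusted p = 0.0136). Gpld1, which overlaps Mrs2 on the other strand, differed from CON by -0.26 in HMLS, -0.20 in TM and -0.03 in DSS, with no call.

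Magt1 was the member called in all 3 comparisons with CON. It had 16.3, 21.4, 26.3 and 23.7 FPKM in HMLS and 27.7, 14.8, 19.8, 17.7 and 19.5 FPKM in TM. In DSS it had 28.4, 21.6, 16.2, 22.6 and 19.4 FPKM, against 23.5 to 36.8 FPKM (median 28.5) in CON. 2 of 4 HMLS libraries, 4 of 5 TM libraries and 4 of 5 DSS libraries lay below every CON library. The means were 21.9 ± 4.28 FPKM in HMLS, 19.9 ± 4.78 FPKM in TM and 21.6 ± 4.49 FPKM in DSS, against 29.2 ± 4.36 FPKM in CON (SD, n = 4, 5, 5 and 8). Relative to CON, Magt1 fell by 0.40 in HMLS (SE 0.135, limma adjusted p = 0.0317), by 0.54 in TM (SE 0.133, adjusted p = 0.0085) and by 0.42 in DSS (SE 0.13, adjusted p = 0.0267) on the log2 scale. The TM call held in all 13 fits that left out 1 library (-0.67 to -0.45). The DSS call ended without DSS 5 (-0.33, adjusted p = 0.0675) or DSS 7 (-0.39, adjusted p = 0.0677), and the HMLS call ended without HMLS 3 (-0.27, adjusted p = 0.123), HMLS 6, CON 1 or CON 3. The HMLS call also ended with all 22 libraries in 1 fit (adjusted p = 0.0525), with no filter on low values (adjusted p = 0.0504) and with the epithelial marker level as a covariate (-0.31, adjusted p = 0.157), which ended the DSS call too (adjusted p = 0.113). With the replicate number as a block the HMLS call was lost as well (-0.35, adjusted p = 0.283). The TM difference was -0.45 without TM 5 (adjusted p = 0.0288). With the percent of reads mapped as a covariate the differences were -0.42 in HMLS, -0.61 in TM and -0.35 in DSS, and the TM one was still called (adjusted p = 0.102, 0.00426 and 0.44). In DSS vs CON that covariate did not overlap between the groups and left 26 genes called in all.

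**Figure D2:**
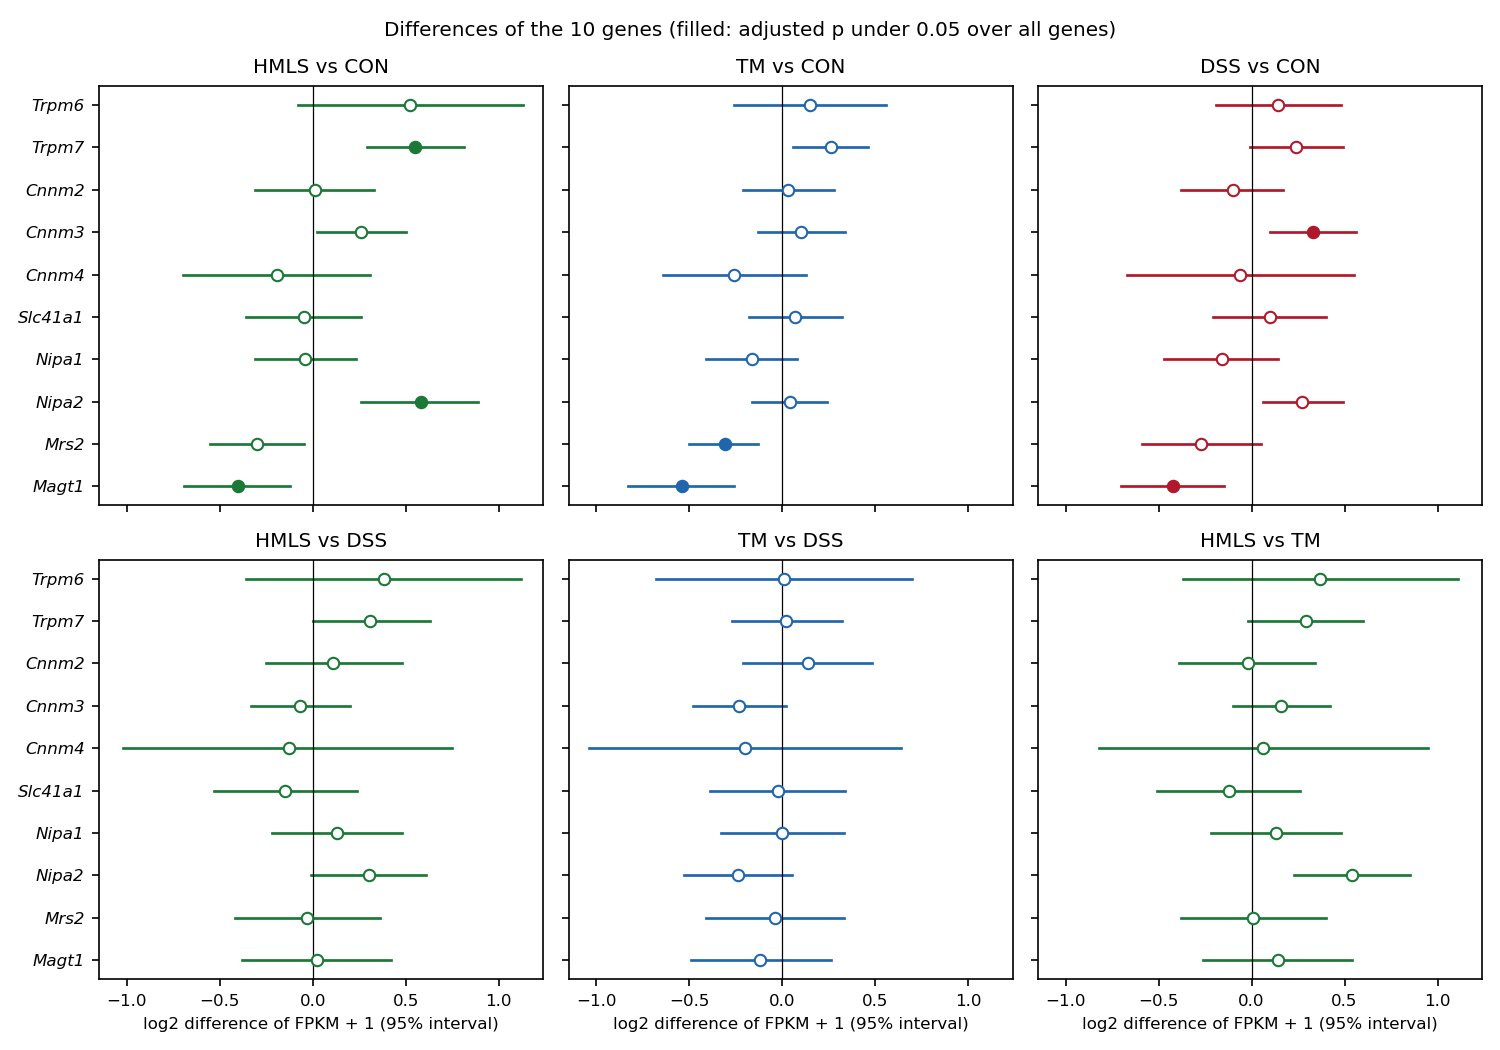
Log2 difference of FPKM + 1 (horizontal axis) of the 10 genes in 6 comparisons, with 95% intervals as lines and filled points where the limma adjusted p over all genes was under 0.05. Filled points appear only in the upper row, against CON, and Magt1 is filled in each panel of that row, while intervals in the lower row cross or touch 0 for all genes except Nipa2 in HMLS vs TM.

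The sea waters were set against DSS, and against each other, in 1 fit of the 3 DSS-treated groups. No member was called in HMLS vs DSS, TM vs DSS or HMLS vs TM, where 0% of 13341 genes were called in each, or in the mean of both waters against DSS, also with 0% called. At an unadjusted limma p under 0.05 the fit gave 740 genes (5.55%) in HMLS vs DSS, 367 (2.75%) in TM vs DSS, 1260 (9.44%) in HMLS vs TM and 297 (2.23%) in both waters vs DSS, and of the members 0, 0, 1 and 0. The 1 member was Nipa2 in HMLS vs TM, with 34.1, 47.4, 58.3 and 61.3 FPKM in HMLS against 34.4, 33.0, 33.0, 34.9 and 32.2 FPKM in TM. 3 HMLS libraries lay above all TM libraries and HMLS 3 among them. Its log2 difference was 0.54 (SE 0.144, 95% interval 0.23 to 0.85, limma adjusted p = 0.407). The lowest adjusted p over the fits that left out 1 library was 0.0563, without HMLS 3.

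Trpm7 was 0.31 higher in HMLS than in DSS (SE 0.147, 95% interval 0 to 0.63, adjusted p = 0.849) and 0.29 higher in HMLS than in TM (SE 0.147, interval -0.02 to 0.6, adjusted p = 0.542), short of the threshold in both. Nipa2 differed by 0.30 in HMLS vs DSS (interval -0.01 to 0.61) and by -0.24 in TM vs DSS (interval -0.53 to 0.05). For Trpm6 the HMLS vs DSS interval ran from -0.36 to 1.12 and the TM vs DSS interval from -0.68 to 0.7. For Magt1, lower than CON in all 3 groups, the interval was -0.38 to 0.42 in HMLS vs DSS, -0.49 to 0.26 in TM vs DSS and -0.26 to 0.54 in HMLS vs TM. Cnnm3 differed by -0.07 in HMLS vs DSS (interval -0.33 to 0.2), by -0.23 in TM vs DSS (interval -0.48 to 0.02) and by 0.16 in HMLS vs TM (interval -0.1 to 0.42). These differences did not pass the threshold, and the intervals do not show that the waters act alike. In TM vs DSS the percent of reads mapped did not overlap between the groups, so it can hardly be told apart from the group.

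Because Magt1 is an oligosaccharyltransferase subunit, 9 other genes of that enzyme were followed, all of them tested. In HMLS vs CON 6 of the 9 were lower and none higher, where 16.6% of all genes were called lower, with a list median of -0.40 against 0 for all genes. The 6 were Ostc (-0.72), Krtcap2 (-0.71), Rpn1 (-0.50), Rpn2 (-0.46), Ddost (-0.40) and Dad1 (-0.39), all non-catalytic subunits. The catalytic subunits Stt3a (66.3 ± 6.32 FPKM in HMLS, 63.4 ± 7.68 FPKM in CON) and Stt3b (83.8 ± 5.13 FPKM in HMLS, 80.5 ± 7.16 FPKM in CON) differed from CON by 0.07 and 0.06. Tusc3, the paralogue that takes the place of Magt1 in the enzyme, averaged 30.1 ± 2.24 FPKM in HMLS and 37.7 ± 5.67 FPKM in CON, a difference of -0.31 (SE 0.116, adjusted p = 0.0528). None of the 9 was called in TM vs CON or DSS vs CON, where the list medians were -0.16 and -0.10, nor in any comparison of the DSS-treated groups. The difference between the groups was thus not shown by its own test, since HMLS vs DSS called no gene (list median -0.32). Of 6 markers of goblet cells, which secrete glycoproteins, 2 were called lower in HMLS. The sums of the 6 were 5224 to 9291 FPKM in HMLS against 9851 to 15330 FPKM in CON. Muc2 and Agr2 did not overlap between HMLS and CON, while Zg16, Fcgbp, Clca1 and Spink4 did. The part of goblet cells in this result was not tested. Leaving out 1 library at a time gave 4 to 7 of the 9, and the call was lost for Ddost without any HMLS library or without CON 1, CON 3, CON 4, CON 5 or CON 7 (highest adjusted p 0.139). Dad1 lost it without HMLS 3, HMLS 6, HMLS 8 or the same 5 CON libraries (highest adjusted p 0.142), and Rpn1 without HMLS 6 (adjusted p = 0.0633).

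Of 11 other magnesium transporters, 10 were in the table and 9 passed the filter of 1 FPKM in 4 libraries. Nipal1, a relative of Nipa1 and Nipa2 described as a magnesium transporter, averaged 47.4 ± 27.9 FPKM in HMLS, 36.1 ± 3.78 FPKM in TM and 33.6 ± 18.8 FPKM in DSS, against 21.0 ± 3.94 FPKM in CON. It was called higher in HMLS (0.99, SE 0.264, adjusted p = 0.0119) and in TM (0.77, SE 0.129, adjusted p = 0.00108), each in all fits that left out 1 library, and not in DSS (0.53, SE 0.24, adjusted p = 0.112). The HMLS difference lay between 0.65, without HMLS 8, and 1.24 in those fits. Nipal3, of the same family, was lower in HMLS (-0.45, adjusted p = 0.00415) and TM (-0.30, adjusted p = 0.0102), with -0.24 in DSS (adjusted p = 0.0978). HMLS also had less Slc41a2 (-0.60, adjusted p = 0.0191, and 0.0715 without HMLS 6) and Mmgt2 (-0.27, adjusted p = 0.0497), the Mmgt2 call holding only in the fits without HMLS 7 or CON 3 (highest adjusted p 0.161). TM had more Slc41a3 (0.38, adjusted p = 0.0321), a call lost without CON 1, CON 3, CON 5, CON 6, TM 3, TM 6 or TM 8 (highest adjusted p 0.0821). In all, 1 of 9 rose and 3 fell in HMLS, 2 rose and 1 fell in TM, and none of 9 was called in DSS, against 34.1%, 26% and 27.1% of all genes called in either direction. Of 3 claudins linked to paracellular magnesium transport, Cldn16 and Cldn19 were below 1 FPKM and Cldn10 averaged 0.899 ± 1.01 FPKM in HMLS, 1.0 ± 0.575 FPKM in TM, 0.68 ± 0.636 FPKM in DSS and 0.385 ± 0.3 FPKM in CON, and none passed the filter for a test against CON.

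Of 15 partners and regulators of the channels and of CNNM proteins, 11 were tested. Against CON, 2 of the 11 rose and 1 fell in HMLS, 2 rose and 1 fell in TM, and 3 rose and 1 fell in DSS. Of all genes, 34.1%, 26% and 27.1% were called in either direction, and the counts of the list lay near these shares. Ptp4a1 and Ptp4a2, phosphatases of regenerating liver that bind CNNM proteins, were called higher than CON in all 3 groups and in every fit that left out 1 library. Ptp4a2 averaged 281 ± 66.9 FPKM in HMLS, 216 ± 24.8 FPKM in TM and 237 ± 46.0 FPKM in DSS, against 161 ± 12.5 FPKM in CON, with differences of 0.78, 0.42 and 0.54 (adjusted p = 0.000672, 0.00476 and 0.00484). Ptp4a1 averaged 41.5 ± 9.74 FPKM in HMLS, 38.6 ± 3.92 FPKM in TM and 50.5 ± 29.3 FPKM in DSS, against 26.9 ± 2.9 FPKM in CON, with differences of 0.58, 0.50 and 0.74 (adjusted p = 0.00321, 0.00161 and 0.02). The Ptp4a1 difference in DSS lay between 0.46, without DSS 5, and 0.86 when 1 library was left out. Ptp4a3 was not called in any of these. Pcbd1, a transcriptional cofactor that also acts in pterin metabolism, was lower in HMLS (-0.65, adjusted p = 0.00303) and in DSS (-0.52, adjusted p = 0.0442). In DSS the Pcbd1 call was lost without CON 1, CON 2, CON 3, CON 5, CON 7, DSS 2, DSS 5 or DSS 7 (highest adjusted p 0.126). Kcna1, a potassium channel that supports magnesium uptake in kidney, was lower in TM (-0.52, adjusted p = 0.0186, and 0.0518 without TM 7) at a level of 1.15 ± 0.422 FPKM in TM and 2.08 ± 0.551 FPKM in CON. No gene of these lists was called among the DSS-treated groups.

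**Figure D3:**
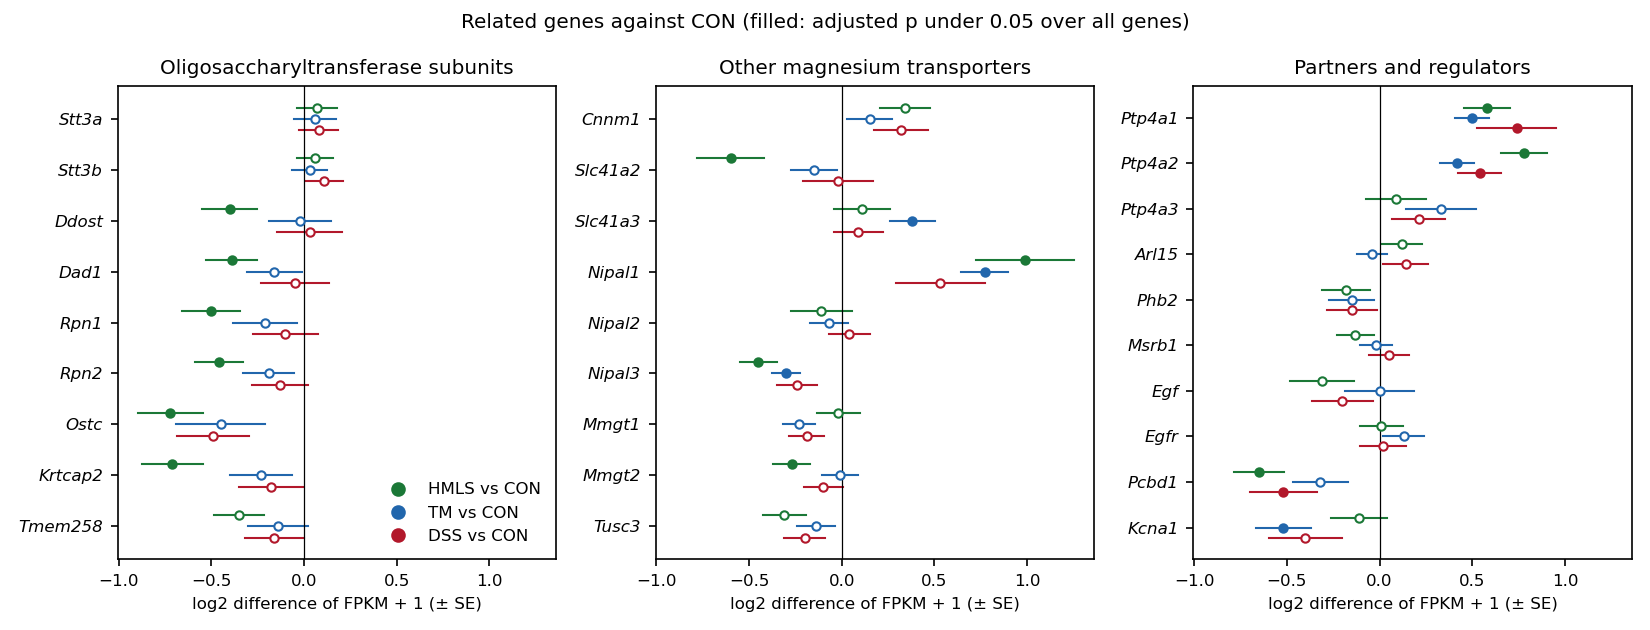
Log2 difference of FPKM + 1 from CON (horizontal axis, lines of 1 SE) of oligosaccharyltransferase subunits, other magnesium transporters and 10 of the partners or regulators in HMLS, TM and DSS, with filled points where the limma adjusted p over all genes was under 0.05. In the left panel 6 of 9 HMLS points are filled on the lower side and none of TM or DSS, and in the right panel Ptp4a1 and Ptp4a2 are filled for all 3 groups.

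The genes whose log2(FPKM + 1) followed the members most closely were looked up among 12707 genes over the 22 libraries, with Pearson's r as a description, since libraries of a group share their treatment and all share the scaling to library size. Cnnm4 followed Hnf4a, a transcription factor of gut epithelium, with r = 0.97, and the pair spanned 78.7 to 207 FPKM of Hnf4a in HMLS, 81.6 to 175 in TM, 61.8 to 250 in DSS and 119 to 174 in CON. The library with the least Cnnm4, DSS 5, also had the least Hnf4a (61.8 FPKM), and that with the most, DSS 6, had the most (250 FPKM). Hnf4a was not called in any comparison with CON. Magt1 followed Ints2, a subunit of the Integrator complex, with r = 0.945 and Pnpt1 with the same value, and Trpm7 followed the ubiquitin ligase Trip12 with r = 0.939. Nipa2 was closest to Taok1 (0.921). Cnnm3 was closest to Car4, a carbonic anhydrase of colonocytes (0.833), and to Gpkow with the same value. Cnnm2 was closest to Mn1 (0.797), Slc41a1 to Dtx4 (0.795), Trpm6 to Fitm2 (0.769) and Nipa1 to Ttll3 (0.671). Ints2 was lower than CON in all 3 groups (-0.54 in HMLS, -0.64 in TM and -0.51 in DSS, adjusted p = 0.0111, 0.00469 and 0.0267), as Magt1 was. Trip12 was higher in HMLS (0.42, adjusted p = 0.00764), as Trpm7 was. These directions follow from the choice by likeness. For Trpm6 the rank correlation with Fitm2 was 0.532, below r, with HMLS 6 highest in both genes.

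**Figure D4:**
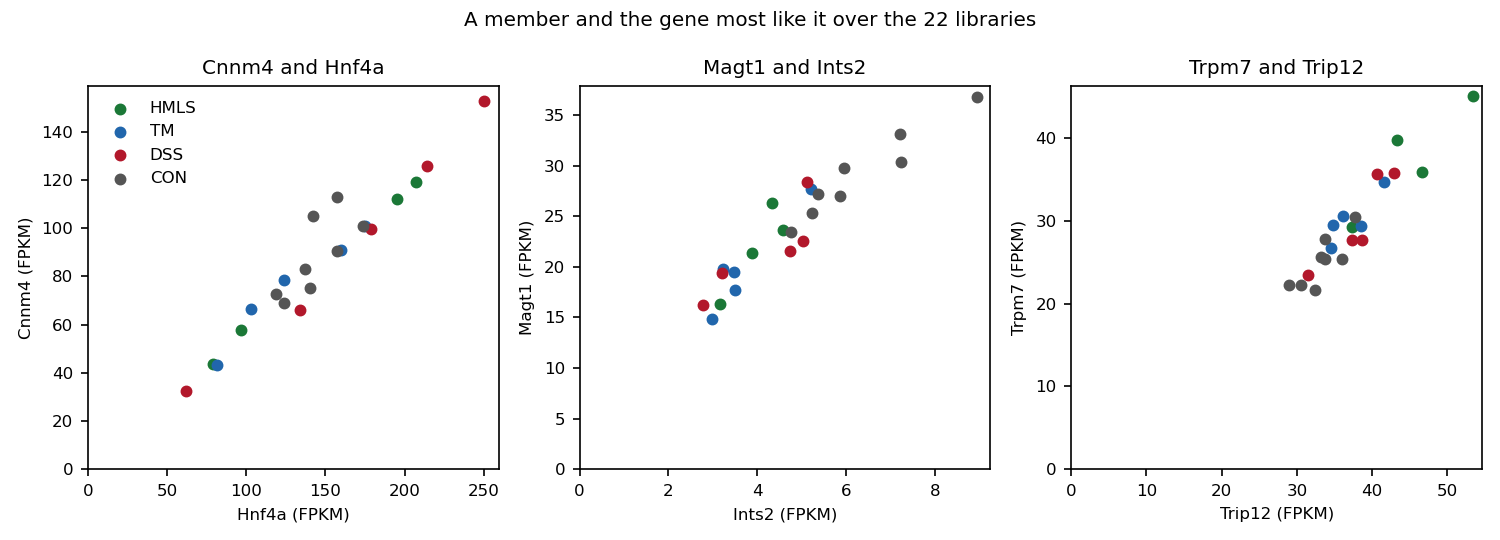
FPKM of Cnnm4, Magt1 and Trpm7 (vertical axes) against FPKM of the gene most like each, Hnf4a, Ints2 and Trip12 (horizontal axes), 1 point per library and coloured by group. The Cnnm4 points run along 1 line with DSS libraries at both ends, Magt1 and Ints2 are both highest in CON libraries, and Trpm7 and Trip12 both reach their highest values in HMLS.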

How the data were processed

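The authors deposited 1 expression table of 23997 genes over 22 libraries, whose values were read as FPKM because the submitters' processing notes name Cufflinks 2.2.0 and the values carry decimals, while the table names no unit. The notes also name bcl2fastq 2.20, Bowtie, TopHat2 2.0.13 and mouse build mm10, and per the labels' protocols libraries were made with a stranded total RNA kit from frozen colon. The authors also deposited each library's count of reads and of mapped reads and the percent mapped. Low FPKM values did not fall on whole multiples of 1 read, so the reads behind each gene are unknown, and precision rests on the spread between libraries.

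Groups came from the labels. A gene entered a fit if 4 or more of its libraries reached 1 FPKM. The test was limma 3.58.1 (R 4.3.3, intensity trend, robust variance) of log2(FPKM + 1), with Benjamini-Hochberg adjustment over all genes and a threshold of 0.05. This scale understates changes of genes near 1 FPKM. A comparison against CON was fitted on those 2 groups alone. Comparisons among HMLS, TM and DSS shared 1 fit. The tests were checked on simulated data. Alternatives were another pseudocount, other filters, 2 scalings, plain variance, a replicate block, the percent mapped as covariate, 1 fit of all libraries and leaving out each library. Leaving out DSS 5, HMLS 3 and TM 5 together and the epithelial or colonocyte marker level as covariate were added after seeing the data. Same-numbered libraries deviated together in all 3 pairs of TM vs DSS (r = 0.432, 0.253 and 0.137), which was taken as pairing under a rule of r above 0.1, and not in all pairs of any other comparison. This pairing is uncertain, and the differences given for TM vs DSS come from a fit without it. The replicate block was run only as an alternative. The r of 0.432 is that of DSS 5 with TM 5, and DSS 5 deviated more like HMLS 3 (0.558), which has another number. In TM vs CON 3 of 5 pairs also passed 0.1 (0.203, 0.188 and 0.197).

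The 10 genes and the related lists were chosen with earlier results of these data known. Text names all 10, the called genes of the lists with a few uncalled for comparison, and the gene most like a member by Pearson's r, leaving out predicted genes, small RNAs and pseudogenes. Results of 2 such genes are not reported here. Of the genes most like a member, Hnf4a, Ints2 and Trip12 were plotted once their values were known. Gene positions come from GENCODE M21 (GRCm38) and promoters from RefSeq (GRCm38.p6).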

Additional observations from a re-analysis of the deposited data

Results flagged for a closer look

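Of 40 groups of 4 to 8 libraries (10 genes in 4 groups), 2 held a library that stood apart from the others by Dixon's criterion, and chance flags about 1 in 20 groups. Cnnm2 was at 4.3 FPKM in DSS 5, against 2.7 to 2.99 FPKM in the other 4 DSS libraries, a gap of 0.819 of the group's range. Nipa1 was at 4.86 FPKM in DSS 6, against 2.26 to 3.0 FPKM in the other 4 DSS libraries, a gap of 0.716 of the range. Neither gene was called in any comparison.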

How the results depend on the processing

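Counts of members called, of 10, were 3 for HMLS, 2 for TM and 2 for DSS, each against CON. Leaving out 1 library at a time they lay between 2 and 5 in HMLS, between 2 and 3 in TM and between 0 and 4 in DSS, where none was left without DSS 7 and 4 were called without DSS 1. With the replicate number as a block these counts were 0 in HMLS, 1 in TM (Magt1) and 1 in DSS (Magt1), and 753, 2000 and 2176 genes were called in all, against 4565, 3510 and 3655 without it. Same-numbered libraries did not deviate together in all pairs of these comparisons, but 3 of 5 pairs in TM vs CON did (r = 0.203, 0.188 and 0.197). Whether a call lost with the block is a weaker effect was therefore not settled. In TM vs DSS, where all 3 pairs had r above 0.1, the block called no member either, and Trpm7 turned to -0.13. In DSS vs CON the count was 0 with the percent mapped as covariate (26 genes in all) and 0 with the epithelial marker level as covariate (1832 in all), and 1 with no filter on low values or without DSS 5. In HMLS vs CON it was 2 with no filter, with the percent mapped or the epithelial level as covariate, with all 22 libraries in 1 fit and without HMLS 3, and 4 under quantile normalization and with the colonocyte level as covariate. In TM vs CON it was 3 with the filter at 5 FPKM, 1 with all 22 libraries in 1 fit and 4 with the epithelial marker level as covariate, which adds Cnnm4 (-0.62, adjusted p = 0.00795) and Trpm7 (0.34, adjusted p = 0.0372). No setting called a member among HMLS, TM and DSS. Signs turned for differences that were not called: without DSS 5, HMLS 3 and TM 5 together, Cnnm4 was 0.276 in DSS vs CON and 0.0678 in HMLS vs CON, and Trpm6 -0.0242 in TM vs CON and -0.279 in TM vs DSS. With the percent mapped as covariate, Trpm6 was -0.114 in DSS vs CON, Cnnm3 0.0258 and Magt1 -0.145 in HMLS vs DSS. Under quantile normalization Nipa2 was -0.0549 in TM vs CON. Leaving out 1 library, the ranges that cross 0 were -0.274 to 0.276 for Cnnm4 in DSS vs CON, -0.405 to 0.0678 for Cnnm4 in HMLS vs CON, and -0.0242 to 0.329 for Trpm6 in TM vs CON. They were also -0.167 to 0.187 for Trpm6 in TM vs DSS, -0.0047 to 0.638 for Trpm6 in HMLS vs TM, -0.0714 to 0.151 for Magt1 in HMLS vs DSS and -0.0602 to 0.0875 for Trpm7 in TM vs DSS. Of 34 further differences, at most 0.198 in size, 22 turned sign under at least 1 setting and none was called under any. The cause of these changes was not tested. Reads per gene are unknown, so no limit from depth can be given.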
